A study of Mus musculus with 88 samples.

Results

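The extensor digitorum longus (EDL) and the tibialis muscle were compared within wild type (WT) mice, using the 10 bulk RNA sequencing libraries of these muscles from 5 WT mice out of the 88 libraries of the series. The libraries were taken by their labelled muscle and genotype and paired by mouse, and all genes of the count table entered the comparison. The same pair of muscles from 5 mice with a knockout (KO) of Cdh15, another 10 libraries, was used as a repeat in other animals. Cdh15 encodes M-cadherin, an adhesion protein of muscle precursors and muscle fibres.

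The series covers 9 tissues of 10 male C57BL/6NTac mice, and by its title the study concerns M-cadherin in fetal muscle formation. The WT mice were 65 to 83 days old and all mice were 65 to 85 days old. All were fasted for 18 h before collection, so every value below is that of a fasted adult muscle. The labels give a knockout of Cdh15 without naming the allele, and no other transgene or treatment. The labels tie each library to 1 animal, and nothing in them says that animals were pooled.

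Both muscles lie in the front compartment of the lower leg. The tibialis flexes the ankle and the EDL is a slender neighbour with long tendons to the toes. In the mouse both are made almost wholly of fast fibres, which express fast myosin heavy chains, contract quickly and tire sooner than slow fibres. Limb muscles keep, in the adult, traces of the transcription factor code that patterned them in the embryo, which makes a pair of near-identical neighbours a place to look for genes tied to muscle identity.

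Total counts were 18.56 to 25.14 M per library in WT EDL and 8.99 to 21.08 M in WT tibialis. EDL was the deeper library in 4 of 5 WT mice and 5 of 5 KO mice. The WT difference in total averaged 6.08 M (exact sign-flip permutation test over 5 mice, two-sided p = 0.125, where 5 mice allow no p below 0.0625). With every library thinned to 8.99 M counts, a setting added after the data were seen, 1891 genes passed in WT, against 2505 at full depth. Levels are given as CPM, read counts scaled to a common library total after TMM scaling. Values by mouse always follow the order 3793543, 3793553, 3805657, 3805673 and 3817948 in WT, and 3779417, 3793546, 3805666, 3805676 and 3817943 in KO. The ribosomal precursor Rn45s took 1.4% to 2.31% of the scaled total in WT EDL and 3.16% to 3.9% in WT tibialis. In KO mice its share was 1.49% to 2.96% in EDL and 2.96% to 4.15% in tibialis, and its part in the results below was not tested.

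A pair of libraries stood apart from their groups. In the WT EDL library of mouse 3817948, the mitochondrial COX1 stood at 59300 CPM against 38000 to 43000 in the other 4 mice, and the atrophy ligase genes Fbxo32 and Trim63 at 1060 and 896 CPM against 2500 to 3250 and 1430 to 3080. The tibialis of that mouse was also low in Fbxo32, at 1220 CPM against 1770 to 2720. The KO EDL library of mouse 3779417 had 28.7 CPM of Mss51 against 244 to 630 in the other 4 KO mice, 22.1 CPM of the myelin gene Mbp against 62.1 to 77.8 and 126 CPM of Car3 against 1110 to 2040. The KO tibialis libraries held 32.6 to 59.2 CPM of Mss51 and 12.1 to 18.5 CPM of Mbp. Its Sim1 and Sim2, at 1.64 and 0.875 CPM, lay within the range of the other KO EDL libraries. Calls that changed when either mouse was left out are given beside many of the results below.

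Cdh15 was checked first, since it tests the genotype labels. In WT EDL it stood at 17.4, 23.8, 15.9, 19.2 and 18.2 CPM, and in WT tibialis at 13.8, 18.8, 13.9, 18.7 and 11.7 CPM. In KO mice it stood at 2.46 to 3.28 CPM in EDL and 1.07 to 1.76 CPM in tibialis, below every WT library. Between the muscles Cdh15 was higher in EDL in 5 of 5 WT mice, by 0.29 on the log2 scale (SE 0.08; adjusted p = 0.0332), although the ranges of the muscles overlapped. This WT call ended when any mouse other than 3805673 was left out (adjusted p 0.0739 to 0.0968). In KO mice the remaining signal was also higher in EDL, by 0.98 (SE 0.18; adjusted p = 0.00168).

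Of 12771 genes tested in WT mice, 2505 differed between the muscles at an adjusted p under 0.05 (19.6%; edgeR quasi-likelihood F test with the mouse as a block). Of these, 1225 were higher in EDL (9.59% of the genes tested) and 1280 were lower (10%). These shares are the background for the count of every gene list below. Most differences were small. The median size among the called genes was 0.46 on the log2 scale and 62.8% of them differed by less than 1.5-fold. Changes beyond 2-fold numbered 173 higher and 177 lower, and changes beyond 4-fold numbered 21 and 14. The ranges of the 5 EDL and 5 tibialis libraries did not overlap for 8.55% of the genes tested, 615 with EDL above (4.82%) and 477 with EDL below (3.74%). Without the mouse as a block the count of called genes was 1100, without mouse 3793543 it was 1475 and without mouse 3805657 it was 1550.

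Several transcription factors of the embryonic limb and body plan were among the largest differences. Sim2 and Sim1, members of the single-minded family of bHLH-PAS factors, were both more than 8-fold lower in EDL. Sim2 (gene 20465, mm10 chr16, 94085260 to 94127032, plus strand) stood at 1.53, 1.64, 1.54, 1.42 and 0.664 CPM in WT EDL and at 17.8, 12.1, 17, 15 and 16.6 CPM in the tibialis of the same mice. The highest EDL value lay far under the lowest tibialis value. The log2 difference was -3.52 (SE 0.19; adjusted p = 1.65e-05). Sim1 (gene 20464, mm10 chr10, 50895651 to 50989152, plus strand) stood at 1.53, 0.822, 1.88, 0.823 and 1.37 CPM in EDL and 10.5, 8.54, 14.4, 9.82 and 12.4 CPM in tibialis, with a log2 difference of -3.14 (SE 0.13; adjusted p = 9.09e-07). In KO mice Sim2 differed by -4.05 (adjusted p = 4.08e-10) and Sim1 by -2.91 (adjusted p = 3.02e-08). In the other WT leg muscles Sim2 averaged 20.7 CPM in gastrocnemius and 19.1 in soleus, near its tibialis level, while Sim1 averaged 0.247 and 2.48 CPM, so that of the 4 muscles EDL held the lowest mean of Sim2 and tibialis the highest mean of Sim1.

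The opposite pattern was seen in Zic1 and Foxc1. Zic1, a zinc finger factor of the neural and mesodermal axis (mm10 chr9, 91360345 to 91365799, minus strand), stood at 9.1, 17.2, 6.21, 13.2 and 5.45 CPM in WT EDL and 1.64, 3.13, 1.24, 3.35 and 0.67 CPM in tibialis. It was higher in EDL by 2.35 (SE 0.13; adjusted p = 5.06e-06) in WT and by 2.5 in KO (adjusted p = 0.00407). Foxc1, a forkhead factor of mesoderm (mm10 chr13, 31806646 to 31810635, plus strand), stood at 4.28, 5.03, 2.27, 5.8 and 2.79 CPM in EDL and 1.1, 1.06, 0.653, 0.958 and 0.782 CPM in tibialis. Its log2 difference was 2.13 (SE 0.17; adjusted p = 7.96e-05), and 2.06 in KO (adjusted p = 0.000196). For both genes the lowest EDL value exceeded the highest tibialis value. Gastrocnemius and soleus held 1.15 and 2.55 CPM of Zic1 and 1.32 and 2.21 CPM of Foxc1 on average.

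Tbx1, a T-box factor needed in head and limb muscle, was lower in EDL, at 6.08, 3.29, 17.5, 6.66 and 8.72 CPM against 36.1, 32.7, 29.4, 30.4 and 25.3 CPM in tibialis. Its ranges did not overlap, and the log2 difference was -2.01 (SE 0.42; adjusted p = 0.0376). In KO it was -1.17 (adjusted p = 0.0497). The WT call ended when mouse 3793543, 3793553, 3805673 or 3817948 was left out (adjusted p 0.0714 to 0.118). Gastrocnemius and soleus had lower means than either front muscle, 2.63 and 5.1 CPM.

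**Figure D1:**
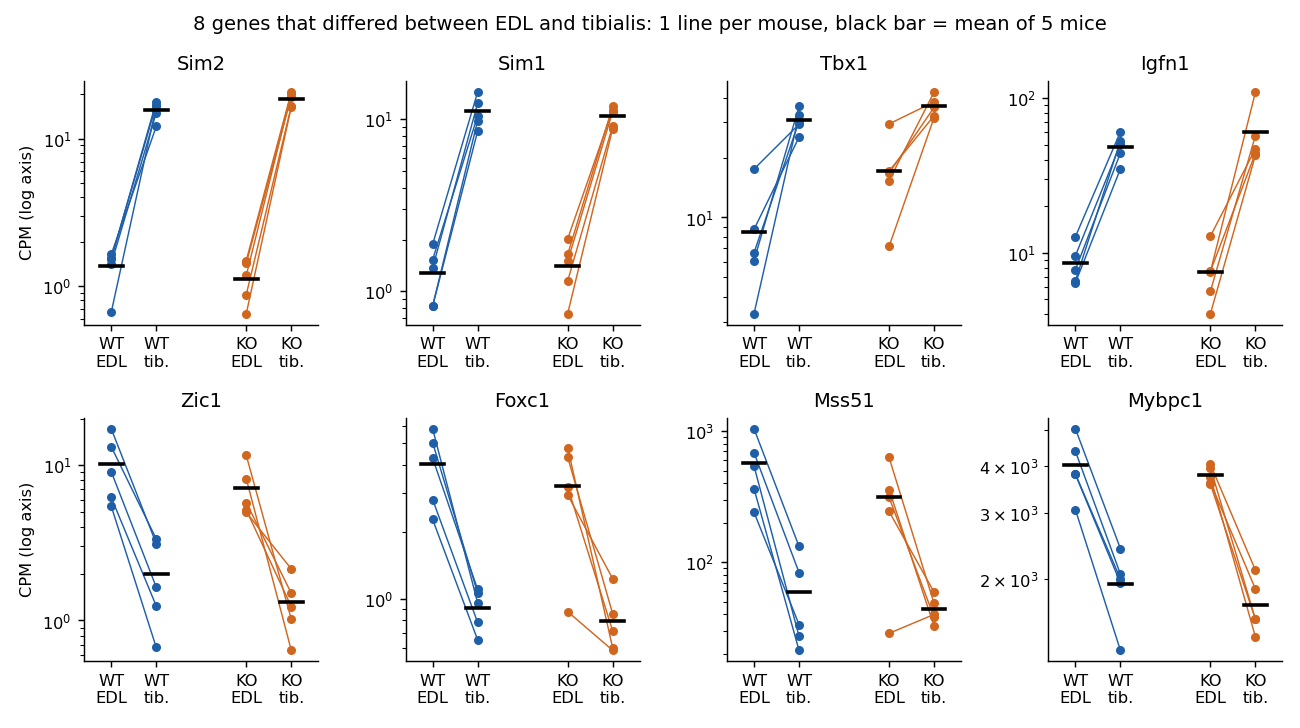
CPM on a log axis of 8 genes in EDL and tibialis of WT and KO mice, with 1 line per mouse and a black bar at the mean of 5 mice. Sim2, Sim1, Tbx1 and Igfn1 slope upward to tibialis, with Sim2 at 0.664 to 1.64 CPM in WT EDL and 12.1 to 17.8 CPM in WT tibialis, while Zic1, Foxc1, Mss51 and Mybpc1 slope downward except for the Mss51 line of KO mouse 3779417.

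Of the 30 other limb patterning factors tested in WT, 5 were higher in EDL and 4 lower, beside 19.6% of all genes called, with a median difference of 0.07 against 0.0 for all genes tested. Tbx3 was higher (10.5 against 4.23 CPM on average, log2 difference 1.27), as were Tbx15 (0.4) and Mkx (0.87). Irx3 was lower (1.74 against 5.47 CPM, -1.68), with Meis1 (1.38 against 3.59 CPM, -1.4) and Lbx1 (-0.72), a homeobox gene of migrating limb muscle precursors. Tbx15, a factor known for its role in fast glycolytic fibres, was the most abundant of those named, at 302, 364, 279, 309 and 260 CPM in WT EDL and 247, 240, 213, 237 and 199 CPM in tibialis (adjusted p = 0.0018). In KO mice 10 of 28 tested factors were higher and 8 lower, beside 22.5% of all genes called in KO.

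Hox genes, which record position along the limb, were mostly low. Of 23 tested in WT, 5 were higher in EDL (Hoxa10, Hoxa11, Hoxa13, Hoxd10 and Hoxd11) and Hoxd4 was lower, a share near the 19.6% of all genes called. Hoxd10 stood at 1.85, 1.19, 1.41, 1.65 and 3.06 CPM in EDL and 0.498, 0.849, 0.653, 0.779 and 0.112 CPM in tibialis, with no overlap (log2 difference 1.46, SE 0.37; adjusted p = 0.0247). Leaving out mouse 3793543, 3793553 or 3805673 left 2 Hox genes higher and 0 lower. The call of Hoxa10 ended on leaving out any mouse (adjusted p 0.0657 to 0.145), those of Hoxa13 and Hoxd4 on leaving out most (0.0528 to 0.0713 and 0.0619 to 0.105), and the call of Hoxd10 ended without mouse 3793543, 3805657 or 3805673 (adjusted p 0.0558 to 0.0871). With libraries thinned to one depth no Hox gene passed, and in KO mice 2 of 20 were higher and 3 lower, near the KO background of 22.5%.

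Beyond transcription factors, Mss51 showed the largest rise among the genes named by size. Mss51, which encodes a muscle-enriched mitochondrial protein (mm10 chr14, 20482864 to 20496901, minus strand), stood at 541, 1040, 240, 684 and 363 CPM in WT EDL and 27.3, 132, 33.5, 83.4 and 21.3 CPM in tibialis. Levels varied several-fold between mice in both muscles, but the ranges did not overlap (log2 difference 3.42, SE 0.3; adjusted p = 0.00363). In KO mice it did not pass (2.49, SE 0.78; adjusted p = 0.101), with mouse 3779417 at 28.7 CPM in EDL against 40 CPM in its tibialis. Without that mouse it passed in KO (3.06, SE 0.37; adjusted p = 0.0187).

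The other genes with the largest rise were mostly of low level. Ppp1r1b, a regulator of protein phosphatase 1, averaged 1.15 CPM in EDL and 0.152 in tibialis (2.94), and B3gat1, a glucuronyltransferase, 1.03 and 0.135 CPM (2.85). The calcium release channel gene Ryr3 averaged 3.91 and 0.592 CPM (2.8), and Ntng1, which encodes netrin-G1, 2.53 and 0.56 CPM (2.15). Odf3l2 was the next most abundant after Mss51, at 71.8 and 18.3 CPM (2.02), and did not pass in KO (adjusted p = 0.152). Its WT call ended when any mouse other than 3805657 was left out (adjusted p 0.051 to 0.07). Col9a1 and Col11a2, collagen genes of cartilage, averaged 7.55 against 1.88 CPM (2.01) and 26.3 against 8.3 CPM (1.64). Both also passed in KO, by 1.27 and 1.95.

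Among the 15 largest falls by the naming rule, Igfn1 had the smallest SE. Igfn1, which encodes an immunoglobulin-like and fibronectin domain protein of the Z-disc (mm10 chr1, 135953578 to 136006342, minus strand), stood at 12.7, 6.4, 6.6, 7.78 and 9.56 CPM in EDL and 60.4, 34.8, 52.9, 44 and 50.3 CPM in tibialis (log2 difference -2.52, SE 0.1; adjusted p = 9.09e-07). Actc1, cardiac actin, stood at 11.5, 12.4, 53.2, 10.9 and 18.9 CPM against 84.1, 107, 137, 73.4 and 77.8 CPM (-2.41; adjusted p = 0.0105), and did not pass in KO (adjusted p = 0.0508). Without KO mouse 3779417, whose EDL held 70.2 CPM of Actc1, it did (-2.54; adjusted p = 0.0144). The nuclear receptor gene Nr4a3 stood at 7.94, 2.15, 5.27, 4.6 and 8.24 CPM against 64.1, 21.9, 28.9, 16.3 and 17.8 CPM (-2.34; adjusted p = 0.0155). Its call ended without mouse 3805657 (adjusted p = 0.0529), and in KO it did not pass (-1.15; adjusted p = 0.216) unless mouse 3779417 was left out (-1.59, SE 0.15; adjusted p = 0.00053). Mrgprg, an orphan receptor gene of the Mas family, stood at 0.106, 0.137, 0.9, 0.187 and 6.46 CPM in EDL and 0.797, 0.584, 18.5, 9.82 and 33.3 CPM in tibialis. It was lower in EDL in every WT mouse although the ranges overlapped (-3.43; adjusted p = 0.00867). Irf5 (3.11 against 12.3 CPM, -2.0) and the channel gene Panx1 (2.15 against 8.17 CPM, -2.0) also fell, in KO too.

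The 4 adult myosin heavy chain genes, which define fibre types, did not pass the test between the muscles. Myh4, the fastest and most abundant, stood at 66500, 85000, 66300, 65800 and 71200 CPM in WT EDL and 60100, 64600, 63000, 70500 and 53700 CPM in tibialis (log2 difference 0.18; adjusted p = 0.158). Myh2 stood at 956, 986, 471, 1310 and 2210 CPM against 889, 832, 207, 375 and 941 CPM (0.91; adjusted p = 0.115). Myh1 (-0.04; adjusted p = 0.854) and the slow Myh7 (-0.22; adjusted p = 0.874) did not pass either. Per length, from the deposited RPKM, Myh4 made up 88.9% of the summed signal of Myh4, Myh1, Myh2 and Myh7 in WT EDL and 88.0% in tibialis (exact sign-flip permutation test over 5 mice, two-sided p = 0.5625). The shares of Myh1 were 9.53% and 11% (p = 0.375 by the same exact test), of Myh2 1.48% and 0.941% (exact p = 0.25), and of Myh7 0.0411% and 0.0414% (exact p = 1.0).

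Other contractile genes did differ. Of 16 fast fibre genes tested, 6 were higher in EDL and 0 lower, with a median of 0.16, and without the mouse block 3 were higher. These were the troponins Tnni2 (0.4), Tnnt3 (0.37) and Tnnc2 (0.33), the calcium buffers Pvalb (0.31; adjusted p = 0.00606) and Casq1 (0.28), and the Z-disc gene Myoz1 (0.31). Actn3 did not pass in WT (-0.06; adjusted p = 0.599). In KO it was lower in EDL with each mouse left out in turn (-0.18 to -0.23; adjusted p 0.0039 to 0.0484). Of the fast genes 6 were higher and 1 lower in KO, with a median of 0.14. Of 13 slow fibre genes, 2 were higher and 1 lower in WT, with a median of 0.12, a share near the 19.6% of all genes called. In KO 2 of 13 were higher and 2 lower, with a median of -0.19. Mybpc1, slow myosin binding protein C, stood at 3810, 5030, 3060, 4380 and 3800 CPM in WT EDL and 2000, 2410, 1290, 2060 and 1950 CPM in tibialis (1.05, SE 0.07; adjusted p = 1.23e-05). Every EDL library lay above every tibialis library, and KO gave 1.17 (adjusted p = 1.24e-05).

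The light chain genes of slow muscle went opposite ways. Myl2 stood at 33.5, 33.9, 16.1, 50 and 90.7 CPM in WT EDL and 6.13, 13.4, 5.49, 10.9 and 5.25 CPM in tibialis (2.24, SE 0.43; adjusted p = 0.0323). That call ended when any mouse other than 3817948 was left out (adjusted p 0.0543 to 0.112). Myl3 stood at 8.73, 5.12, 13.2, 18.9 and 15.3 CPM against 33.3, 38.2, 35.3, 22.7 and 77.1 CPM, with no overlap, and did not pass (-1.75, SE 0.44; adjusted p = 0.0638). Without mouse 3805673 Myl3 passed (adjusted p = 0.0101). In KO mice Myl2 was higher (1.9; adjusted p = 0.0406, and 0.0795 without mouse 3779417) and Myl3 lower (-2.65; adjusted p = 0.021) in EDL. Casq2 was lower in WT EDL (-0.38). Among the fast genes above, Casq1 lost its WT call without mouse 3805657 (adjusted p = 0.0517), and Tnnc2 its KO call without 3779417 (adjusted p = 0.0602).

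Of 31 regulators of fibre type and myogenesis, 4 were higher in EDL and 6 lower, beside 19.6% of all genes called. Without the mouse block 1 was higher and 2 lower. Leaving out mouse 3793543 or 3805657 gave 2 higher and 3 lower, leaving out 3793553 gave 2 and 4, and leaving out 3817948 gave 1 and 8. Six4 (0.38), its cofactor Eya4 (0.48) and Ppard (0.31) were among those higher. The calls of Eya4 and Ppard ended without mouse 3817948 (adjusted p 0.0552 and 0.0505), that of Eya4 also without 3793543 (0.0664) and that of Ppard without 3793553 or 3805657 (0.0568 and 0.0602). The estrogen-related receptor genes Esrra (-0.37) and Esrrg (-0.55), which drive mitochondrial genes, were lower. In KO Esrra did not pass (adjusted p = 0.0535) unless mouse 3779417 was left out (-0.22; adjusted p = 0.0128). Ppargc1a, their coactivator, did not pass (-0.29; adjusted p = 0.181).

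Nuclear genes of oxidative phosphorylation were mostly lower in EDL. Of 30 tested, 16 were lower and 1 higher, with a median of -0.25, beside 10% of all genes lower. Without mouse 3793543, 9 were lower. Uqcrfs1, the Rieske subunit of complex III, stood at 170, 109, 170, 163 and 141 CPM in WT EDL and 274, 259, 231, 240 and 219 CPM in tibialis (-0.72, SE 0.11; adjusted p = 0.00341). Its ranges did not overlap. Cyc1 (-0.6), Uqcrc1 (-0.48), Sdhd (-0.4), Cox5a (-0.75) and Ndufab1 (-1.06) were lower too. The calls of Cox5a and Ndufab1 ended without mouse 3793543 (adjusted p 0.0544 and 0.0809), and that of Ndufab1 also without 3805673 (0.0695). Cox6a2, a muscle form of a complex IV subunit, was the exception, at 459, 618, 437, 524 and 781 CPM against 385, 426, 345, 364 and 362 CPM (0.54, SE 0.11; adjusted p = 0.011). In KO mice 11 were lower and 2 higher, with a median of -0.09, and 4 and 2 without the mouse block.

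The 13 mitochondrially encoded proteins, a list added after the data were seen, had 8 members lower in WT EDL, 0 higher and a median of -0.28. Their summed share of the scaled total was 15.1% to 24.3% in EDL and 19.0% to 24.1% in tibialis, so the muscles overlapped. Without WT mouse 3817948, whose EDL was high in COX1, 11 were lower with a median of -0.36. COX1 itself lost its WT call without mouse 3793543, 3793553 or 3805657 (adjusted p 0.0619 to 0.0743). In KO 10 were lower. Of 21 genes of fatty acid uptake and oxidation, 7 were lower in WT and 0 higher (median -0.13), among them Eci1 (-0.45), Cd36 (-0.43), Acsl1 (-0.41) and Acadvl (-0.36). Without the mouse block 3 were lower, as without mouse 3793543, and 4 without 3805657, 3805673 or 3817948. In KO 3 of 21 were lower and 1 higher, with a median of 0.03, beside 22.5% of all genes called in KO. Without mouse 3779417 the KO counts were 3 lower and 4 higher, and without the mouse block 0 passed in KO. Of 22 genes of glycolysis and glycogen, 6 were lower and 2 higher (median -0.04), and 4 lower and 0 higher without mouse 3793543, without 3805657 or without the block. Leaving out 3793553 gave 4 and 1, leaving out 3805673 gave 3 and 0, and leaving out 3817948 gave 6 and 1. Hk2, the hexokinase of insulin-responsive muscle, averaged 275 against 468 CPM (-0.76), Gys1, glycogen synthase, 380 against 514 CPM (-0.45) and Ldha 1410 against 1660 CPM (-0.24). Ldhb averaged 70.8 against 49 CPM (0.52; adjusted p = 0.0484), a call that ended when any mouse other than 3793553 was left out (adjusted p 0.0807 to 0.14). In KO Ldhb and Hk2 passed without mouse 3779417 (0.66, adjusted p = 2.49e-05, and -0.62, adjusted p = 0.0199) and not with it. Cd36 lost its WT call without 3793543, 3805657 or 3817948 (adjusted p 0.0511 to 0.0627), and in KO without 3779417 Acsl1 passed (adjusted p = 0.0143) and Eci1 did not (adjusted p = 0.0623).

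Genes of the neuromuscular junction were mostly higher in EDL. The junction is the synapse where motor nerve endings release acetylcholine onto receptors of the muscle fibre, whose subunit genes are read mainly by the few nuclei beneath the nerve ending. Their promoters are known for E-boxes, bound by myogenic bHLH factors, and N-boxes, bound by ETS factors. The 150 bases before the start of 3 of these genes are shown because their transcripts were higher in WT EDL and their windows hold a match. Chrnb1 and Etv5 were also higher and their windows hold neither CAGCTG nor CCGGAA, so 3 of the 5 higher genes with a window have a match. The windows are from RefSeq, build GRCm38.p6. Capitals mark E-boxes (CAGCTG, the same on both strands) and N-boxes (CCGGAA, searched on both strands, with no match shared by both motifs). E-box here means CAGCTG only. Other forms of the E-box were not searched or marked, so a window without a match may hold them.
Chrna1: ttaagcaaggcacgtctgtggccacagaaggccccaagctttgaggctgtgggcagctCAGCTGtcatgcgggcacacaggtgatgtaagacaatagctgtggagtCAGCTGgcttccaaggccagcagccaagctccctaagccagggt
Chrne: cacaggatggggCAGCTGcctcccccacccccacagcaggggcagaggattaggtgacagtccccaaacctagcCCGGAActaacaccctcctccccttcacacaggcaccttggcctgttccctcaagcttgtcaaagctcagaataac
Musk: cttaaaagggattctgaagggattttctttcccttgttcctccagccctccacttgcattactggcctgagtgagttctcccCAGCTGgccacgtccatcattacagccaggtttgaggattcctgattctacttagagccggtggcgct
The windows lie at chr2:73580339-73580488 (minus strand), chr11:70619195-70619344 (minus strand) and chr4:58285812-58285961 (plus strand). Chrna1 holds E-boxes at -92 and -44 from the start, Chrne an E-box at -138 and an N-box at -76, and Musk an E-box at -68. Of the 12 junction genes 8 had a window, 3 of them with an E-box and 1 with an N-box. Among 32851 windows of this length, 8.39% held the E-box and 9.23% the N-box. These matches are descriptions of letters, and binding was not measured.

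Of the 12 junction genes tested, 8 were higher in WT EDL and 1 lower, with a median of 0.42, beside 9.59% of all genes higher. Chrne, the adult receptor subunit, stood at 12.7, 17, 13.3, 18.3 and 11.8 CPM in EDL and 6.57, 9.18, 5.23, 8.99 and 5.25 CPM in tibialis (1.06, SE 0.09; adjusted p = 8.76e-05). Chrna1 stood at 17, 20.7, 15.1, 23.2 and 14.6 CPM against 8.17, 12.9, 8.63, 10.7 and 7.26 CPM (0.92, SE 0.08; adjusted p = 0.000159). For both subunits all EDL libraries lay above all tibialis libraries. Chrnd (1.02), Chrnb1 (0.41), the receptor kinase gene Musk (0.91), its partner Lrp4 (0.39), the acetylcholinesterase anchor Colq (0.75) and the ETS factor Etv5 (0.44) were also higher. Dok7, which activates Musk, was lower (5.45 against 8.9 CPM, -0.71; in KO -0.29, adjusted p = 0.44, and -0.53, adjusted p = 0.00234, without mouse 3779417), and Ache, Rapsn and Ufsp1 did not pass. The summed level of the list was 155 to 193 CPM in WT EDL and 103 to 147 CPM in tibialis. In KO mice 7 were higher and 0 lower, with a median of 0.39.

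**Figure D2:**
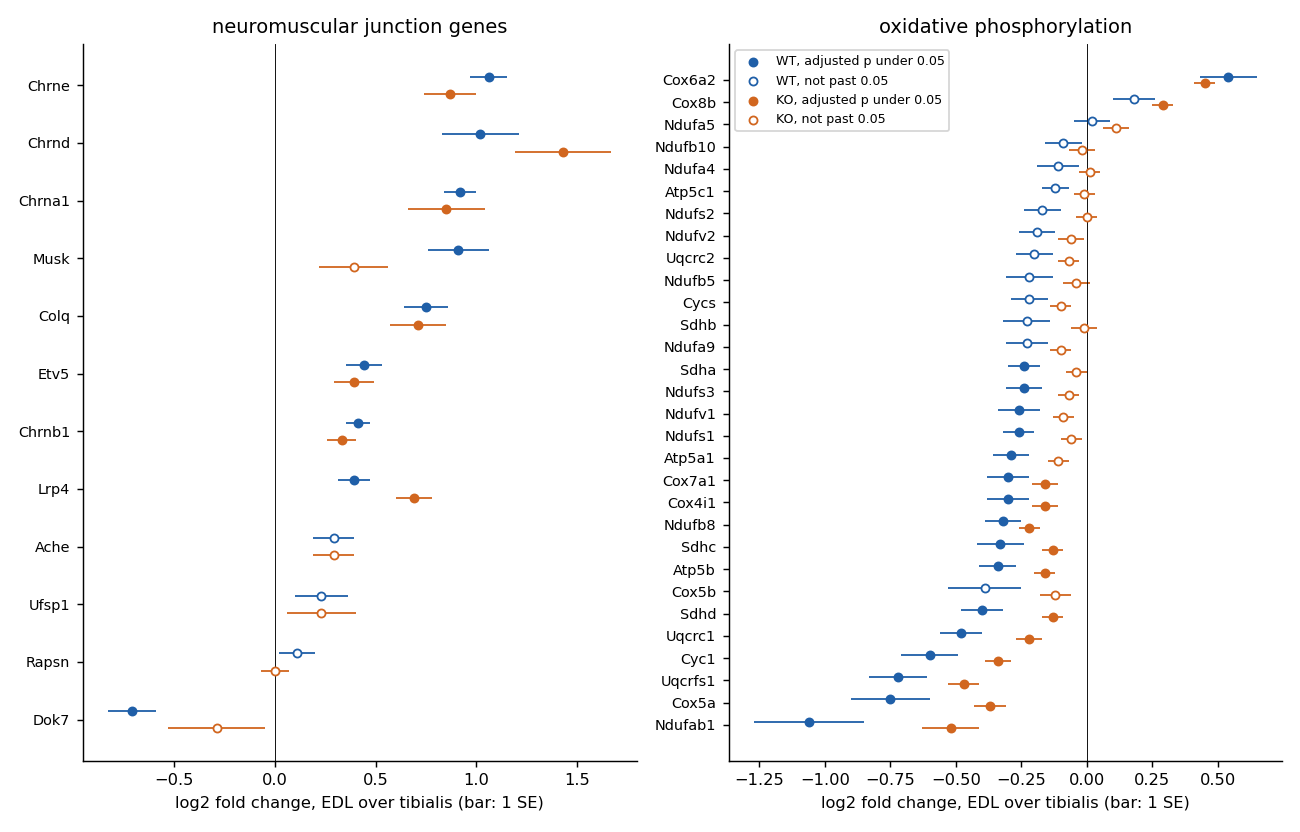
Log2 fold change of EDL over tibialis with 1 SE for the neuromuscular junction genes (left) and the nuclear oxidative phosphorylation genes (right), in WT and KO mice, with filled points past an adjusted p of 0.05. In WT 8 of 12 junction genes are filled to the right of 0, and 16 of 30 oxidative phosphorylation genes are filled to the left with Cox6a2 on the right.

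Markers of nerve sheath moved with the junction genes. In bulk tissue, fewer cells of a type and less RNA per cell cannot be told apart, which holds for each marker list. Of 15 Schwann cell and myelin genes, 13 were higher in WT EDL and 0 lower, with a median of 1.57, and Egr2 and Pmp2 did not pass. Mbp, myelin basic protein, stood at 77.9, 60.8, 55.3, 76.3 and 77.5 CPM against 17, 28.6, 16.8, 16.1 and 21.9 CPM (1.8, SE 0.18; adjusted p = 0.00197). Every EDL library lay above every tibialis library. Pmp22 (98.8 against 39.6 CPM on average, 1.32), Prx (1.74) and Cldn19 (1.57), all genes of myelinating cells, were higher too. The list summed to 319 to 426 CPM in WT EDL and 99.8 to 172 CPM in tibialis. WT gastrocnemius held 76.6 CPM of Mbp and soleus 57.4 CPM on average. In KO 13 of 14 were higher (median 1.70), also 13 without mouse 3779417 (median 1.88), but 8 without mouse 3805666. The part of nerve tissue in the junction result was not tested.

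Endothelial genes went the other way. Of 15 tested, 13 were lower in WT EDL and 0 higher, with a median of -0.83, and Pecam1 and Vwf did not pass. Kdr, the main receptor for vascular endothelial growth factor, stood at 12.4, 8.73, 12.3, 13.7 and 14.9 CPM in EDL and 46, 23.8, 27.9, 17.6 and 27.3 CPM in tibialis (-1.16, SE 0.22; adjusted p = 0.0197). Its call ended without mouse 3793553, 3805657 or 3817948 (adjusted p 0.0552 to 0.0876). Tie1 stood at 6.98, 6.67, 9.25, 11.1 and 9.52 CPM against 27.2, 19.1, 20, 15.3 and 26.9 CPM (-1.31, SE 0.21; adjusted p = 0.00914). Both genes had every EDL value below every tibialis value. The list summed to 154 to 233 CPM in EDL and 237 to 446 CPM in tibialis. Without mouse 3793543 the count of lower genes was 8, without 3793553 it was 6 and without 3805657 it was 5. In KO 14 were lower (median -0.89). Vegfa, a ligand of Kdr, was lower in WT EDL (101 against 149 CPM, -0.6; adjusted p = 0.0253) and that call ended without mouse 3793543, 3805657 or 3805673 (adjusted p 0.0586 to 0.0759). In KO Vegfa did not pass (adjusted p = 0.374), and without mouse 3779417 it was lower (-0.37, SE 0.06; adjusted p = 0.000388). Cdh5, the endothelial cadherin gene, lost its WT call without 3793553 or 3805657 (adjusted p 0.128 and 0.0923), and Pecam1, just past the threshold in KO, did not pass there without 3779417 (adjusted p = 0.0719).

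**Figure D3:**
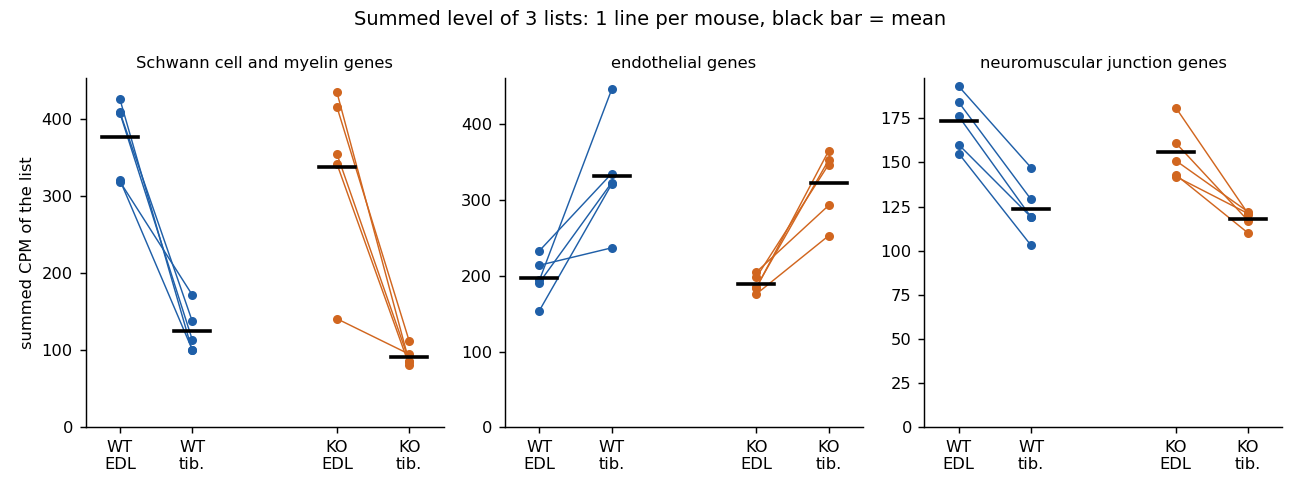
Summed CPM of the Schwann cell and myelin, endothelial and neuromuscular junction lists in EDL and tibialis of WT and KO mice, with 1 line per mouse and a black bar at the mean. In WT the myelin sum is 319 to 426 CPM in EDL and 99.8 to 172 CPM in tibialis, and the endothelial sum is 154 to 233 CPM in EDL and 237 to 446 CPM in tibialis.

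Of 14 macrophage genes, 5 were lower in WT EDL (Cd68, Ptprc, C1qb, C1qa and Lyve1) and 0 higher, with a median of -0.49. Their sums overlapped, at 125, 146, 158, 139 and 256 CPM in EDL and 122, 136, 299, 234 and 484 CPM in tibialis. The sum was thus not lower in EDL in mice 3793543 and 3793553. The tibialis libraries of these mice also shared the Snrpn counts of EDL given below, and the part of that was not tested. The count was 2 without mouse 3805657, 3805673 or 3817948, 8 without 3793553 and 0 without the mouse block. C1qa, Lyve1 and Ptprc did not pass without mouse 3817948 (adjusted p 0.0681 to 0.0883). In KO 12 were lower, with Cd68 not passing (adjusted p = 0.065) unless mouse 3779417 was left out (-1.14; adjusted p = 0.000485). Without the mouse block 7 were lower in KO. Of 12 smooth muscle and pericyte genes 4 were lower (Rgs5, Kcnj8, Pdgfrb and Notch3) and 2 higher (Abcc9 and Lmod1). Of 15 fibroblast genes 3 were lower (Col3a1, Hic1 and Ly6a), a share like the 19.6% of all genes, with 2 higher and 3 lower without mouse 3805673 and 1 and 4 without 3793553. Ly6a did not pass without 3793553, 3805657 or 3817948 (adjusted p 0.0726 to 0.0983), and Retn did not pass without 3817948 (adjusted p = 0.101). Of 12 adipocyte genes Retn alone was higher in WT (0 without mouse 3793553, 4 without 3805657), with a median of 0.77. In KO 0 of 12 were higher and 3 lower, with a median of -0.12, a share near the 22.5% of all genes called there. Without KO mouse 3805666, or without the mouse block, 1 was lower in KO. Of 10 lymphocyte and neutrophil genes 0 passed the filter on low counts.

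Tendon and myotendinous genes had 4 of 20 members higher in WT EDL and 0 lower, beside 19.6% of all genes called and 9.59% higher. Their median was 0.49, and 9 were higher without mouse 3805673. Col22a1, a collagen of the muscle-tendon junction, averaged 32.4 against 18.5 CPM (0.79), Tigd4 26.4 against 13.6 CPM (0.92), and Prg4, the lubricant of tendon and joint surfaces, 134 against 78.3 CPM (0.69). The call of Prg4 ended when any mouse other than 3805673 was left out (adjusted p 0.0707 to 0.107), and in KO without 3779417 (adjusted p = 0.117). In KO 12 were higher and 0 lower. Of 12 satellite cell genes Megf10 (0.71) and Cdh15 were higher and Heyl lower (-0.38), beside 19.6% of all genes called. Leaving out mouse 3793543, 3793553 or 3805657 gave 1 higher and 0 lower, and leaving out 3817948 gave 1 and 1. Pax7, the defining factor of these cells, did not pass (1.71 against 1.62 CPM; adjusted p = 0.938).

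**Figure D4:**
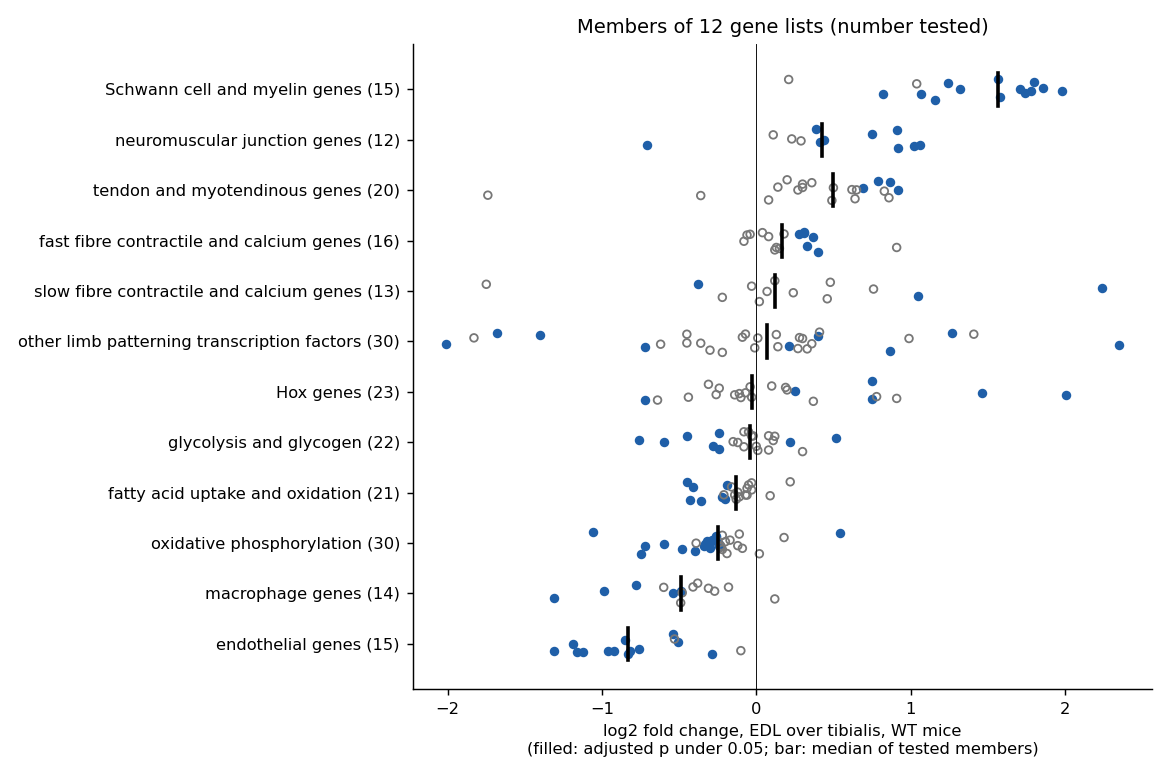
Log2 fold change of EDL over tibialis in WT mice for each tested member of 12 gene lists, filled where the adjusted p is under 0.05, with a bar at the median of each list. Schwann cell and myelin genes centre on 1.57 and endothelial genes on -0.83, the fast fibre genes on 0.16 and the oxidative phosphorylation genes on -0.25.

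Of 16 secreted muscle factors and binding proteins, 6 were higher in WT EDL and 5 lower, and 2 and 0 without the mouse block. Leaving out mouse 3793543 gave 3 and 2, and leaving out 3805657 gave 5 and 2. Ostn, musclin, averaged 6.65 against 2.69 CPM (1.28; adjusted p = 0.000694). Mstn, myostatin, which limits muscle growth, averaged 108 against 64.5 CPM (0.75; adjusted p = 0.0244), and its call ended without mouse 3793543 or 3793553 (adjusted p 0.0797 and 0.107). Fst, an inhibitor of myostatin, was also higher (0.55). Igf1, a growth factor, was lower (21 against 29.8 CPM, -0.56). Of 22 fasting and atrophy genes 4 were higher (Sesn1, Klf15, Klhl38 and Ddit4) and 3 lower (Ucp2, Ucp3 and Gadd45a), beside 19.6% of all genes called. Without mouse 3817948 the counts were 7 and 3, and 0 passed without the mouse block. The calls of Ddit4 and Ucp3 each ended on leaving out any of 3 single mice (adjusted p 0.0525 to 0.075 and 0.0894 to 0.104). Gadd45a did not pass in KO (adjusted p = 0.105) unless mouse 3779417 was left out (-0.59; adjusted p = 1.44e-05). Among 13 heat shock genes 0 passed with edgeR, 5 had an unadjusted p under 0.05, limma voom called 0 and DESeq2 called 3 lower. All 13 had lower estimates in EDL (median -0.41), and 4 passed as lower without mouse 3817948 and 2 without 3793553. Of 15 immediate early genes Jun and Cyr61 were lower (0 without mouse 3805657, 1 without 3793543 or 3805673). Of 15 clock genes Tef was higher (2 higher without mouse 3817948, 0 without each of the other mice), and in KO Tef did not pass without mouse 3779417 (adjusted p = 0.0644). Of 12 cadherins and catenins (0 higher and 2 lower without mouse 3793543, 1 and 0 without 3805657, 2 and 1 without 3793553, 1 and 2 without 3817948), Cdh2 (0.77), Cdh11 (0.64) and Cdh15 were higher and Cdh4 (-0.92) and Cdh5 (-0.83) lower. Of these, Cdh2, Cdh11 and Cdh4 each lost the call without 2 of the mice taken singly (adjusted p 0.0517 to 0.0595).

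The muscle difference was then compared with that in KO mice. Of 12538 genes tested in KO, 2818 differed (22.5%), 1313 higher in EDL (10.5%) and 1505 lower (12%), and without mouse 3805666 1796 differed. The ranges did not overlap for 11.5%, 5.9% with EDL above and 5.58% with EDL below. Of 12499 genes tested in both genotypes, 1605 passed in both, 794 higher and 811 lower, all in the same direction. They were 65.0% of the 2469 WT calls and 57.2% of the 2807 KO calls. Without WT mouse 3805657, 1063 genes passed in both with one direction and 2 passed in opposite directions. Without KO mouse 3817943, 1 passed in opposite directions. Across all genes 78.8% had the same sign, and the log2 differences correlated with a Spearman rho of 0.76, a description across genes, which are not independent replicates.

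**Figure D5:**
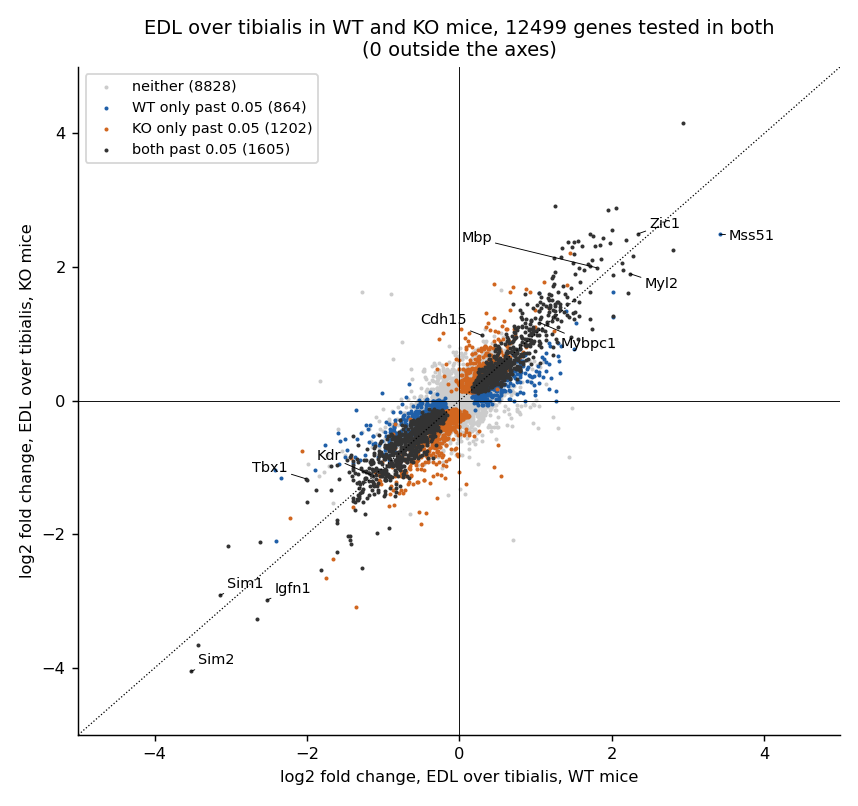
Log2 fold change of EDL over tibialis in WT mice (horizontal) and KO mice (vertical) for 12499 genes, coloured by which genotype passed an adjusted p of 0.05, with a dotted line of equality. Genes past the threshold in both genotypes (1605) lie in the lower left and upper right, 864 passed in WT only and 1202 in KO only.

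No gene's muscle difference was shown to differ between genotypes. Of 13117 genes tested for that difference with edgeR, 0 passed (smallest adjusted p = 0.933), and 641 had an unadjusted p under 0.05 (4.89%). By limma voom the count was also 0. DESeq2 called 1, as did edgeR without mouse 3779417, and it was the pseudogene Atp6v0c-ps2, whose reads can be shared with Atp6v0c. Its log2 estimates in these fits were 39.9 and 22.81. On simulated counts with 100 genes changed per fold, the edgeR fit of the genotype difference recovered 58% at 1.5-fold and 98% at 2-fold. Only genes with a mean of at least 5 CPM were changed and no mouse effect was simulated, so the recovery does not cover genes of lower level. Differences of 1.5-fold between genotypes could thus be missed. For Cdh15 the KO minus WT difference was 0.68 (unadjusted p 0.00169; adjusted p = 0.933). The smallest p was that of Mmd, higher by 0.13 in WT and lower by 0.51 in KO, a difference of -0.64 that did not pass.

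Snurf and Snrpn overlap in the genome, and their counts cannot be told apart by gene. Snrpn was at 0 in all 10 EDL libraries and in 2 WT tibialis libraries, those of mice 3793543 and 3793553. Snurf was correspondingly higher in these libraries. The joint sum was 28.1 to 32.9 CPM in WT EDL and 25.7 to 31.6 CPM in tibialis, so no difference is given for either gene. The split of the counts followed muscle in every KO pair and in WT mice 3805657, 3805673 and 3817948. The WT tibialis libraries of mice 3793543 and 3793553 held 21.08 and 19.7 M counts. The other WT tibialis libraries held 8.99 to 16.68 M and the KO tibialis libraries 10.73 to 16.61 M. The part of this split in the muscle differences above, in WT or in the KO repeat, was not tested.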

How the data were processed

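Polyadenylated RNA was extracted with MagMax and made into libraries with the KAPA stranded mRNA-Seq kit, per the labels' protocols. The build is mm10, per the submitters' processing notes. The aligner, the counter and the use of strand are not given in the labels or headers read here. Expected counts per gene fill the deposited table, of which 86.97% were whole, and they were rounded. The authors also deposited RPKM values, used here only for myosin shares. The 22 rows that the table's annotation lists as markers rather than genes were left out (0 to 0.000864% of counts).

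Genes passing a minimum count of 10 (total 15) were tested with edgeR 4.0.16 (robust quasi-likelihood F test, TMM scaling, Benjamini-Hochberg threshold 0.05) in R 4.3.3, with the mouse as a block, since both muscles come from the same animal by its labelled number. Deviations of same-mouse libraries from their group means correlated weakly to moderately (r 0.114 to 0.446 in WT, 0.086 to 0.295 in KO). For the EDL of WT mouse 3793553 and of KO mouse 3817943 the best match was the tibialis of another mouse. SEs are the log2 difference over the root of F. P-values weigh the EDL minus tibialis difference against its spread over the paired mice, 5 a genotype. Levels that differ between mice are taken out by the block. On simulated counts with 100 genes changed per fold, the WT fit recovered 89% at 1.5-fold and 98% at 2-fold, with 11 wrong calls. Only genes with a mean of at least 5 CPM were changed and no mouse effect was simulated. The recovery therefore does not cover genes of lower level or differences between mice.

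Named genes are the 15 largest differences each way among called genes with a mean of at least 1 CPM and one direction in 5 of 5 WT mice, fixed genes, up to 4 genes of smallest p per list, the 5 smallest p in KO and in the genotype difference, and whole marker lists. Further called members of a list, and the genes that show which libraries stand apart, were named after their values were seen. CPM scales counts by the TMM-adjusted library total. The members and lists were chosen with earlier results of these data known. Alternatives used DESeq2 1.42.0 and limma 3.58.1. Some genes of the lists are counted but not reported by name here.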

Additional observations from a re-analysis of the deposited data

Results flagged for a closer look

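Of 104 groups of 5 libraries (26 genes shown by mouse), 8 had 1 library far from the other 4, where chance gives about 1 in 20. In WT EDL, mouse 3817948 was low in Sim2 (0.664 CPM against 1.42 to 1.64) and high in Mrgprg (6.46 against 0.106 to 0.9), mouse 3805657 was high in Actc1 (53.2 against 10.9 to 18.9), and mouse 3793553 was high in Myh4 (85000 against 65800 to 71200). In WT tibialis, mouse 3817948 was high in Myl3 (77.1 CPM against 22.7 to 38.2) and mouse 3793543 in Nr4a3 (64.1 against 16.3 to 28.9). In KO mice, the tibialis of 3817943 was high in Igfn1 (109 CPM against 42.7 to 57.1) and the EDL of 3779417 was low in Mbp (22.1 against 62.1 to 77.8).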

How the results depend on the processing

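Without the mouse as a replicate block, 1100 genes passed in WT and 715 in both genotypes, against 2505 and 1605. DESeq2 gave 1745 in WT, against 2505, and 1570 in KO, against 2818. It gave 1073 in both genotypes with one direction, against 1605, and 1 for the genotype difference, against 0. Leaving out 1 mouse gave 1475 to 2117 in WT, 1796 to 2875 in KO, 0 to 1 for the genotype difference and 1063 to 1688 shared. Thinning to 1 depth, added after the data were seen, gave 1891 in WT. Of 150 called genes named in WT, 69 passed in every setting in which they were tested, and 0 reversed. Settings in which a gene had no adjusted p, for example because the filter left it out, were not counted. Hoxd11, 1 of the 69, was not tested without mouse 3793553. Uncalled estimates changed sign: in WT Myh1 without 3793543 (0.01) or 3805657 (0.07), Myh7 without the block (0.16), 3793553 (0.26) or 3805657 (0.18), Pax7 without 3805657 (-0.14) or 3805673 (-0.03), Aldh1a1 without 3805657 (-0.02), Klhl2 without 3805657 (0.03) or thinned (0.07), Vwf without 3793553 (0.04) or thinned (0.03), Egr2 without 3805673 (-0.09) or thinned (-0.11), and in KO Myh4 without 3817943 (-0.01), Myh1 without 3779417 (0.11), Retn without 3793546 (-0.13) or 3805676 (-0.09) and Ppard without 3817943 (-0.0). Over all mice left out in turn, the WT estimates reached -0.19 for Myh1, -0.68 for Myh7, 0.15 for Pax7, 0.12 for Aldh1a1, -0.15 for Klhl2, -0.23 for Vwf and 0.45 for Egr2, and the KO estimates -0.24 for Myh1 and 0.47 for Retn. The causes were not tested. Cdh15 in WT also did not pass without the block (adjusted p = 0.241) or with DESeq2 (adjusted p = 0.107). Low genes such as Hoxd11 rest on few counts.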
